A study of Mus musculus with 153 samples.

Results

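Cwc22 is the mouse gene for a splicing factor, and its level in tail skin is described here across 81 male and 70 female mice. It was chosen by its measured values: the distribution on the arrays not labelled as outliers was read for 1 or more modes, for the gene's other probe sets, and for genes of chromosome 2 that move with it. It is 1 gene of the 18810 measured, and 8 of the 35385 probe sets with values were annotated with it. A probe set is the group of array probes that is summarised into 1 value. The distribution, the probe sets and the chromosome 2 genes are therefore given as descriptions with no test, and only genotype, sex and genes of other chromosomes are tested.

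The series holds RNA from snap-frozen tail skin of untreated mice 8 weeks old. They come from a backcross: F1 females of a Mus spretus male and an Hras-/- FVB/N female were mated with FVB/N males that were Hras-/- or Hras-/+. The 2 groups compared are HET (Hras +/-, 19 males and 18 females) and WT (Hras +/+, 62 males and 52 females). Every mouse carries 1 set of FVB/N chromosomes from its father, and a mixture of FVB/N and Mus spretus chromosome segments from its mother. Each mouse gave 1 array, arrays were run on 3 plates (49, 46 and 56 mice), and 2 further WT male arrays labelled as outliers were left out. The deposited values are on a log2 scale, so that 1 unit is a doubling. Array medians lay between 4.67 and 4.89. Genotype labels are taken as given, since the transcript of the targeted gene is not reported here. Skin identity was checked with Krt14, Krt10 and Col1a1, markers of basal epidermis, differentiated epidermis and dermal fibroblasts, which averaged 11.4, 12.2 and 11.2 log2 units over the mice, where the median gene averaged 5.45.

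As background, Cwc22 protein is part of the spliceosome, the machine that removes introns from precursor RNA. It holds the helicase Eif4a3 on the precursor RNA and thereby lets the exon junction complex be laid down on spliced messenger RNA, which later marks the RNA for export, translation and nonsense-mediated decay. In the mouse, Cwc22 lies on a stretch of chromosome 2 known to differ in copy number between strains and wild mice. With arrays, the amount of RNA, the match between a probe and an allele, and the share of near-identical gene copies in the signal cannot be told apart, and in a bulk tissue fewer cells of a type and less RNA per cell cannot be told apart either.

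The promoter of Cwc22 is shown as the start region of a gene whose values fell into 2 levels among these mice. It is the RefSeq window of 300 bases, 250 before and 50 after the gene's start, on the minus strand of chromosome 2 in build GRCm38.p6 (chr2:77946307-77946606). Capitals mark each copy of the letters ACTACAA, read on either strand.
Cwc22: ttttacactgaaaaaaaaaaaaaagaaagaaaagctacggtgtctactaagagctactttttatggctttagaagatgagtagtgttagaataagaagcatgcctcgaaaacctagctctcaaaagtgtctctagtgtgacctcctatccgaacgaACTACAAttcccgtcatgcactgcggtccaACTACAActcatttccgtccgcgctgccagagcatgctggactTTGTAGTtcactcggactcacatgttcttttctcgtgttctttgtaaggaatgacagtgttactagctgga
The window holds 3 copies of ACTACAA, 2 on the gene's strand and 1 on the opposite strand, and 3.24% of 32851 RefSeq promoter windows of this length hold at least 1. Only 4 of the 32851 windows hold 3 or more. The first copy runs on into ACTACAATTCCC, the opening of the sequence known to be bound by the zinc finger protein Zfp143, which 0.277% of the windows hold. This motif was searched for after the sequence had been read. The letters of a TATA box, TATAAA, were found on neither strand of the window, while 13.6% of all windows hold them. A CCAAT box, which 37.4% of the windows hold, was not found either. Nor was GGGCGG, which 35.7% hold and which Sp1 is known to bind. The window has 11 CpG sites. These matches describe the letters of the reference strain only.

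Cwc22 had 2 separate levels among the mice. Over all mice its lowest, median and highest values were 6.77, 10.23 and 10.99 log2 units, with quartiles at 7.45 and 10.47. No mouse lay between 8.07 and 10.02, a gap of 1.95 log2 units or 3.86-fold, and the next widest gap between neighbouring mice was 0.23. Above the gap stood 83 mice, from 10.02 to 10.99 with a median of 10.43, and these are called the upper cluster. Below it stood 68 mice, from 6.77 to 8.07 with a median of 7.42, the lower cluster. The upper cluster averaged 10.46 ± 0.21 and the lower cluster 7.40 ± 0.23 log2 units (SD, n = 83 and 68), a distance of 3.06 or 8.34-fold. The share of mice in the upper cluster was 54.97%, with an exact 95% binomial interval of 46.7 to 63.1 that covers counting error only.

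**Figure D1:**
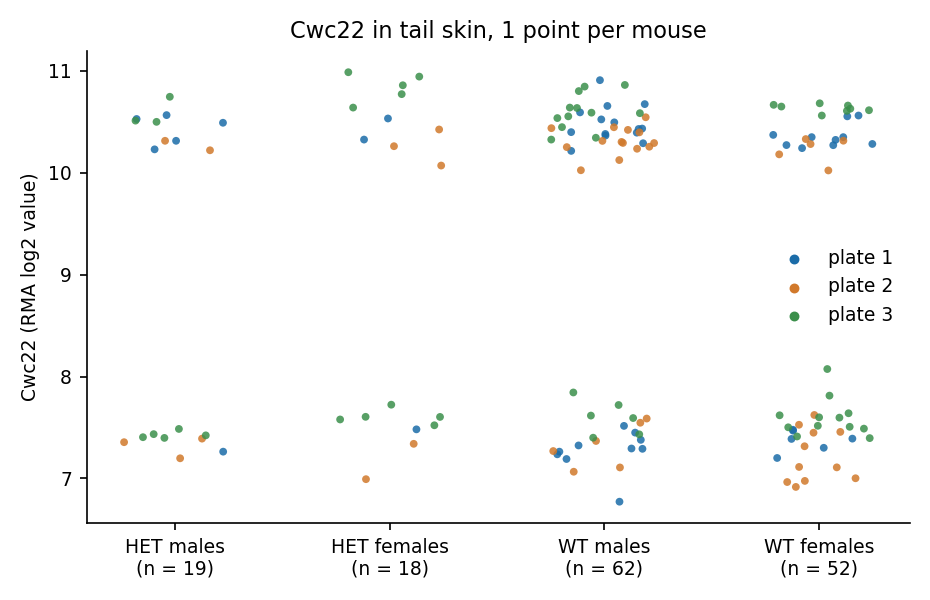
Cwc22 level (RMA log2 value, vertical axis) in each mouse, by genotype and sex, with points coloured by array plate and spread sideways at random. Every one of the 4 sets holds mice above 10.02 and mice below 8.07, and none in between.

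The shape was unusual among the genes measured. With plate means removed, a mixture of 2 normal distributions described Cwc22 better than a single one by 334 units of the Bayesian information criterion, on which higher favours 2 levels. That difference ranked 3 among 18810 genes, whose median was -11.2. The standard deviation of Cwc22, 1.54 log2 units, ranked 16, against a median of 0.22. Only 9 genes had a gap of at least 1 log2 unit with 10 or more mice on each side, and Cwc22 ranked 6 among them. The 5 genes with a wider such gap were Eif2s3y, Uty and Kdm5d of the Y chromosome, Xist, the RNA of the inactive X, and Cr2, a complement receptor gene with a gap of 2.37. The first 4 of these follow the sex of the mouse, so Cwc22 and Cr2 were the genes of other chromosomes with the widest divisions.

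The probe sets of the gene put every mouse at the same level. All 8 carry Cwc22 as their only symbol. Of these, 7 had the same value on every array and share 1 transcript accession, so they count as 1 measurement, and it is the one used here. The eighth, annotated with more transcripts, was at 5.73 to 9.80 log2 units and had its own widest gap from 7.23 to 8.65. It put 83 mice above and 68 below that gap, at 9.18 ± 0.22 and 6.37 ± 0.32 log2 units (SD), a distance of 2.81 or 7.02-fold. All mice fell on the same side by both measurements. Within the upper cluster the 2 measurements correlated across mice with r = 0.79 (Spearman's rho 0.77, n = 83), and within the lower cluster with r = 0.45 (rho 0.44, n = 68). Both measurements come from the same arrays and the same normalization.

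**Figure D2:**
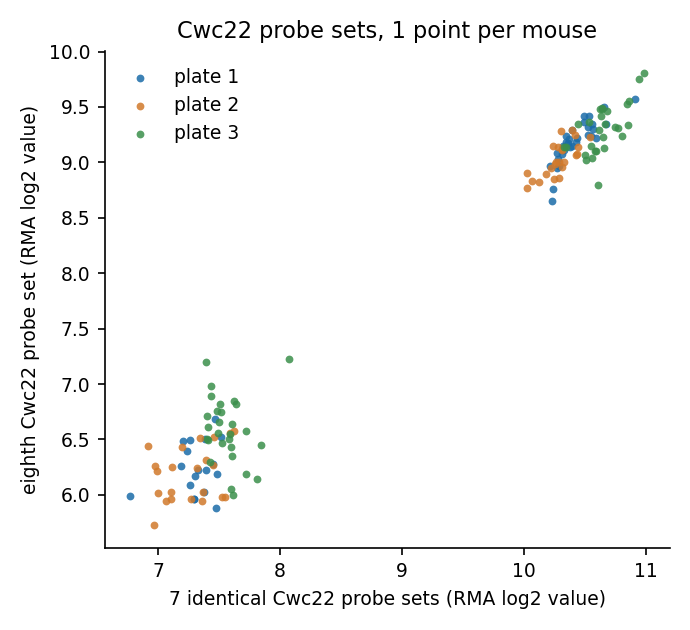
The eighth Cwc22 probe set against the 7 identical ones (both RMA log2 values), 1 point per mouse, coloured by plate. The mice form 2 clouds, 83 at upper right and 68 at lower left, with no mouse in the gap of either measurement.

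Genotype at Hras did not separate the levels. HET mice had 20 of 37 in the upper cluster (54.1%) and WT mice 63 in the upper and 51 in the lower (55.3%). In HET mice the upper cluster ran from 10.07 to 10.99 and the lower from 6.99 to 7.72, against 10.02 to 10.91 and 6.77 to 8.07 in WT mice. Cwc22 averaged 9.09 ± 1.58 in HET and 9.08 ± 1.54 log2 units in WT (SD, over 37 HET mice and all WT mice). These averages fall in a gap that holds no mouse. The HET minus WT difference was 0.02 ± 0.29 (SE, adjusted p = 0.993 in limma over all genes), where 21 of 18810 genes (0.112%) passed an adjusted p of 0.05, 6 of them higher (0.0319%) and 15 lower (0.0797%) in HET, or 8 and 12 with array medians centred. A permutation of genotype within plates gave p = 0.933 (2-sided, 100000 draws).

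Males were in the upper cluster more often than females in these mice, but the difference did not pass the test. Among males 50 of 81 stood in the upper cluster (61.7%), and among females 33 of 70 (47.1%). The medians, 10.29 in males and 7.77 in females, lie in different clusters although each sex fills both. The averages were 9.28 ± 1.52 in males and 8.86 ± 1.55 log2 units in females (SD, n = 81 and 70). The male minus female difference was 0.41 ± 0.25 (SE, limma adjusted p = 0.436), in a comparison where 680 genes (3.62%) passed, 207 higher (1.1%) and 473 lower (2.51%) in males. With array medians centred the split was 348 higher and 271 lower, and after quantile normalization 329 and 302. A permutation of sex within plates gave p = 0.113, or 0.226 adjusted over the 2 permutation tests of Cwc22. By plate the difference was 0.00 on plate 1, 0.86 on plate 2 and 0.34 on plate 3.

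The sets that combine genotype and sex ranged more widely in the share of upper-cluster mice. The upper cluster held 10 of 19 HET males, 10 of 18 HET females, 40 of 62 WT males and 23 of 52 WT females. The difference between the sexes in the genotype effect was -0.85 ± 0.57 log2 units (SE, unadjusted p = 0.137, limma adjusted p = 0.998). No gene passed that test in limma (0% of 18810), and 895 had an unadjusted p under 0.05. By plate the upper cluster held 31 of 49, 24 of 46 and 28 of 56 mice. On each plate the gap was at least 2.25 log2 units wide, while the gap over all plates runs from a plate 3 mouse at 8.07 to a plate 2 mouse at 10.02. The medians of the upper and lower clusters were 10.64 and 7.55 on plate 3 and 10.29 and 7.29 on plate 2.

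The genes most like Cwc22 all lay on its own chromosome. Likeness is Pearson's r over all mice after plate, sex and genotype were removed, and since the mice form 2 clusters it measures mostly how a gene differs between them. It is given with no p, because these genes were part of how Cwc22 was chosen, and genes of 1 chromosome share inherited segments. The 12 genes with the largest r of either sign were on chromosome 2, as were all 30 genes with r of at least 0.5 in size, and chromosome 2 holds 8.68% of the genes measured. Outside it the largest r was 0.37, and 84 chromosome 2 genes exceeded that size, 53 with a positive and 31 with a negative sign. They spread from 135 measured genes before Cwc22 to 813 after it, with 17 before and 67 after, and Cwc22 itself is at place 532 of 1632 in gene order.

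**Figure D3:**
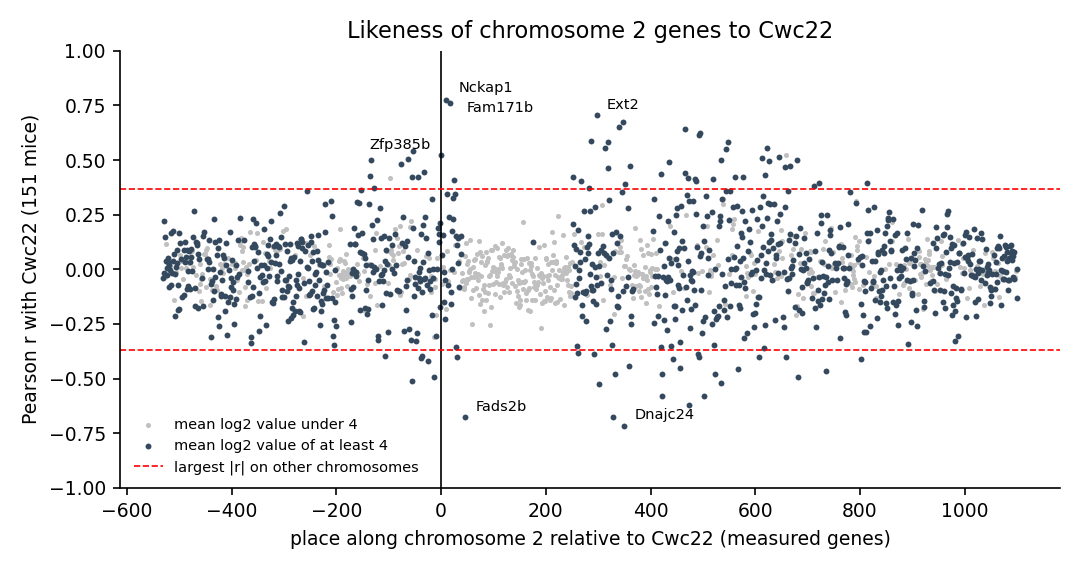
Pearson r with Cwc22 after plate, sex and genotype (vertical axis) for each measured chromosome 2 gene, by its place before or after Cwc22 in gene order (horizontal axis, in measured genes). Dark points average at least 4 log2 units, grey points less, and red dashed lines mark the largest size of r on other chromosomes, 0.37. The points beyond the lines run from place -135 to place 813 and have both signs.

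Nckap1, a subunit of the WAVE complex that builds actin networks, came first with r = 0.77 (rho 0.74). It lies 10 measured genes after Cwc22 and ran from 8.69 to 9.41 log2 units with a median of 9.15. Its slope was 0.07 ± 0.01 log2 units per log2 unit of Cwc22 (SE), which comes to 0.22 over the distance between the clusters. Fam171b, 16 genes after Cwc22, had r = 0.76 and a larger slope of 0.26 ± 0.02, or 0.78 over that distance. Fam171b ran from 3.79 to 6.30 log2 units with a median of 5.33. Neither of them had a gap of its own: the widest with 10 mice on each side was 0.02 log2 units for Nckap1 and 0.06 for Fam171b, against 1.95 for Cwc22.

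Farther along, genes with positive and negative r lay side by side. Immp1l, a subunit of the peptidase of the inner mitochondrial membrane, and Dnajc24, a co-chaperone of diphthamide synthesis, are neighbours at 348 and 349 genes after Cwc22. Immp1l had r = 0.68 and a slope of 0.10, while Dnajc24 had r = -0.72 and a slope of -0.10. Ext2, a glycosyltransferase that builds heparan sulfate, had r = 0.71 at 297 genes after. Fads2b of the fatty acid desaturase family had r = -0.68 at 46 genes after. Fbxo3, the substrate-binding part of a ubiquitin ligase, had r = -0.67, and Prrg4, a membrane protein with a Gla domain, had r = 0.65. The other four of the 12 were Ndufaf1, an assembly factor of respiratory complex I (r = 0.64), Tubgcp4 of the gamma-tubulin complex (r = 0.63), Ehd4, which acts in endocytic recycling (r = -0.62), and Adal, an adenosine deaminase-like enzyme (r = 0.62). Each of the 12 had the same sign on all 3 plates, with r between 0.52 and 0.83 in size. The 12 were chosen over the mice of these same plates, so this is a description and not separate support. The next 5 genes had r of 0.58 to 0.59 in size.

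**Figure D4:**
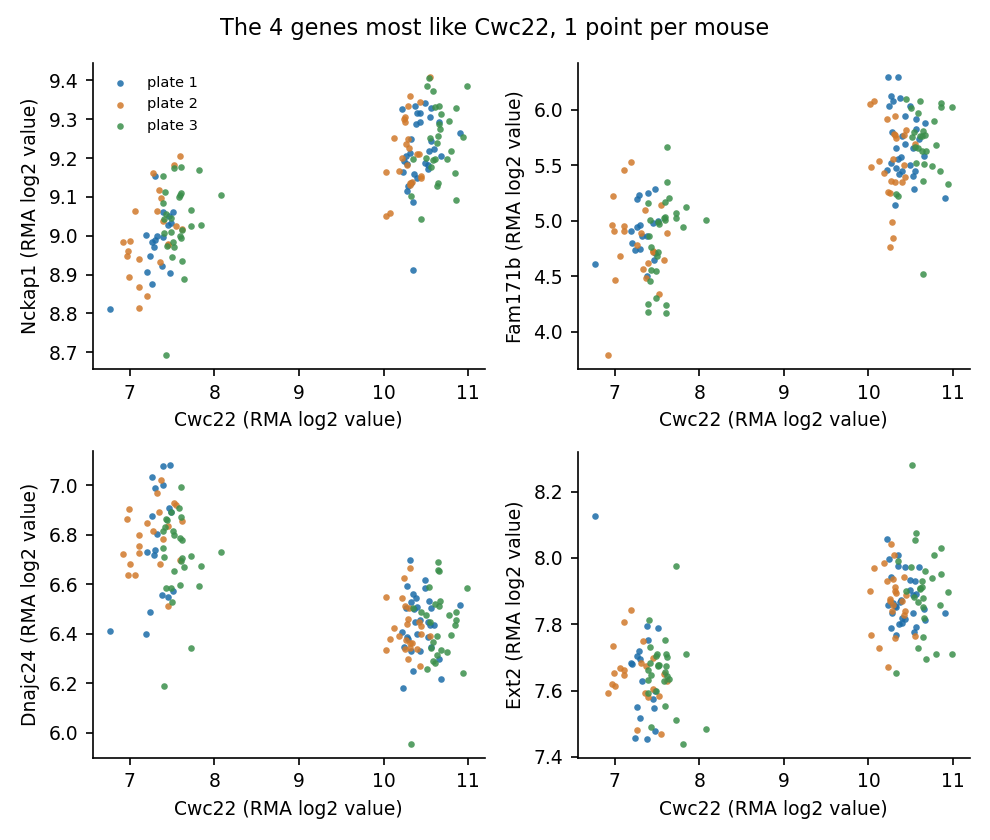
Nckap1, Fam171b, Dnajc24 and Ext2 (vertical axes) against Cwc22 (horizontal axes), all RMA log2 values, 1 point per mouse, coloured by plate. Each of the 4 genes differs between the 2 clouds of mice, but its values in the clouds overlap, unlike those of Cwc22.

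Inside each cluster the likeness was smaller. Among the 12 genes r ran from -0.29 to 0.35 within the upper cluster and from -0.34 to 0.41 within the lower cluster. Nckap1 kept r = 0.29 and 0.41, and Immp1l 0.35 and 0.17, in the upper and lower clusters. Fam171b had -0.07 and 0.18, and Ext2 turned to -0.14 and -0.34. When the 12 most alike genes were chosen again within a cluster, 1 of the 12 was on chromosome 2 in the upper cluster and 1 in the lower. That is near the 8.68% of all measured genes that lie on chromosome 2. Neither list shared a gene with the 12 over all mice.

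The closest genes on the chromosome were not as a rule the most alike. Of the 20 nearest measured genes, 10 on each side, only Zfp385b, a zinc finger gene next to Cwc22 (r = 0.52), and Nckap1 reached 0.5, and 14 had r under 0.2 in size. Before Cwc22, Rbm45 had r = -0.31, Sestd1 0.21, Osbpl6 -0.21, Fkbp7 0.19, Ccdc141 -0.17, Ttn 0.16, Plekha3 0.13, Pjvk 0.05 and Prkra 0.00. Ttn, the giant protein of muscle fibres, had a spread of 1.30 log2 units (SD), and its r of 0.16 came without any gap like that of Cwc22 (0.19 at most). After Cwc22, Pde1a had r = -0.23, Frzb -0.18, Itga4 0.15, Ppp1r1c -0.15, Ube2e3 0.07, Gm14461 -0.07, Dnajc10 -0.05, Neurod1 0.01 and Itprid2 -0.01. Several of these, such as Neurod1 at 2.15 and Pjvk at 2.47 log2 units on average, were near the bottom of the scale.

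The share of genes with r of 0.3 or more in size was counted among genes averaging at least 4 log2 units. With both sides of Cwc22 pooled, the share was lower far from Cwc22 than near it, without a steady fall. It was 3 of 15 genes within 10 places of Cwc22 and 29.6% of 54 genes beyond that and up to 50 places. It was 21.4% of 28 genes up to 100 places, 15.5% of 58 up to 200, 12.7% of 237 up to 400, 16.1% of 249 up to 600 and 7.47% of 348 beyond. On the other chromosomes 24 of 11648 such genes (0.206%) reached that size. The bare stretch after Cwc22 in the plot along the chromosome has hardly any gene of that level: 0 of 50 at places 51 to 100 and 1 of the 100 after those.

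Few genes of other chromosomes passed the test of varying with the Cwc22 level across all mice. In a limma fit with Cwc22 as a covariate beside plate, sex and genotype, 49 of 17148 genes outside chromosome 2 passed an adjusted p of 0.05 over all genes (0.286%), 14 rising with Cwc22 (0.0816%) and 35 falling (0.204%). The count leans on the many chromosome 2 genes with small p in the same adjustment. With genes outside chromosome 2 adjusted alone, none passed. An unadjusted p under 0.05 was found in limma for 1383 of the 17148, which is a share above 0.05. The 5 with the largest r were Fas, a death receptor (r = 0.37), Awat2, a wax synthase of the sebaceous gland (-0.35), Faah, which breaks down fatty acid amides (-0.35), Tbkbp1, an adaptor of the kinase Tbk1 (-0.35), and the odorant receptor gene Olfr155 (-0.34). Fas ran from 3.01 to 4.93 log2 units with a mean of 4.01, and its slope was 0.08 ± 0.02 (SE, adjusted p = 0.000892 in limma over all genes, 0.0533 over genes outside chromosome 2). Awat2 ran from 4.38 to 8.49 with a median of 6.44 and had a slope of -0.17 ± 0.04 (limma adjusted p = 0.00161, and 0.0533 outside chromosome 2).

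Outside chromosome 2, no gene on the lists of those that work with Cwc22 passed the test of following it across all mice. Of 117 genes in 7 lists of its pathway, 95 were measured and lie outside chromosome 2 and 10 lie on it. Of the 95, 0 passed in either direction in the limma fit over all mice, where 0.286% of all genes outside chromosome 2 passed, and their median slope was 0.00, as was that of all genes. The 10 on chromosome 2 are described by r alone. Eif4a3, the helicase that Cwc22 brings to the RNA, had r = 0.09, the largest of the 4 measured genes of the exon junction complex core and its assembly. In the periphery of the complex Sap18 had r = -0.22. Among nonsense-mediated decay genes Sec13 had r = 0.17, and among early splicing factors Snrpd1 had 0.15. The MIF4G domain is a fold that Cwc22 shares with translation factors. In a list of MIF4G domain proteins and genes grouped with them, Eif4g3 had r = 0.22. Cwc27, a cyclophilin known as a binding partner of Cwc22 in human cells, had r = 0.27. The largest r in the catalytic core list was -0.36, for the helicase gene Aqr, which lies on chromosome 2.

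Genotype and sex moved few of these genes. No measured pathway gene passed in HET against WT (0.112% of all genes passed), and none passed for the interaction. For sex, 2 passed (both lower in males, 1.90%, against 2.51% of all genes lower). Gspt1, a translation termination factor, had a male minus female difference of -0.14 ± 0.02 (SE, limma adjusted p = 7.28e-10), and Pdcd4, an inhibitor of translation initiation, -0.14 ± 0.03 (limma adjusted p = 0.00433).

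Many more genes passed within the upper cluster alone. Across those 83 mice, whose Cwc22 values span 10.02 to 10.99, 1090 of 17148 genes outside chromosome 2 passed in limma (6.36%), 602 rising with Cwc22 (3.51%) and 488 falling (2.85%). Within the lower cluster 0 of 17148 passed in limma, with 1363 at an unadjusted p under 0.05, and the difference between the clusters was not tested. Of the 1180 genes called in the upper cluster on any chromosome, 713 had the same sign in the lower cluster. The share of all genes with the same sign in both clusters is not given beside it. The 713 are therefore not read as support from the lower cluster. The count of 1090 genes outside chromosome 2 fell to 191 when the eighth probe set measured Cwc22. The 2 measurements shared 180 genes, 15.3% of the 1180 called with the 7 identical probe sets and 86.1% of the 209 called with the eighth. Array medians correlated with Cwc22 at r = -0.12 in the upper and -0.15 in the lower cluster, and with the array median as a further term 1187 genes outside chromosome 2 passed in the upper cluster.

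Of the 95 pathway genes, 14 rose with Cwc22 in the upper cluster (14.7%) and none fell, against 3.51% and 2.85% of all genes outside chromosome 2. Their median slope was 0.08, against -0.02 over all genes. In the lower cluster none of the 95 passed, but 69 had a positive slope, against 62 in the upper. Their median slope in the lower cluster was 0.07, against 0.02 over all genes. The largest slope in the upper cluster among those named was that of Snrnp70, a protein of the U1 particle that recognises the start of introns. Snrnp70 ran from 7.51 to 8.41 log2 units over all mice with a median of 8.03, and in the upper cluster its slope was 0.87 ± 0.11 (SE, limma adjusted p = 6.98e-08, r = 0.67). In the lower cluster its slope was -0.08 ± 0.12, with a limma adjusted p of 0.918. Sf1, which binds the branch point of introns, had 0.45 ± 0.08 in the upper cluster (limma adjusted p = 0.000241) and 0.02 ± 0.08 in the lower. Cwc27, the binding partner, had 0.65 ± 0.13 in the upper (limma adjusted p = 0.00079) and 0.13 ± 0.13 in the lower. With the eighth probe set as the measure of Cwc22, all 14 kept their sign and 3 passed, Snrnp70 (slope 0.60 ± 0.09, SE, limma adjusted p = 2.35e-05), Sf1 (0.27 ± 0.07, limma adjusted p = 0.0301) and the scaffold gene Srrm2. Cwc27 did not pass with it (0.29 ± 0.11, limma adjusted p = 0.191). The 14 were chosen in the same mice and on the same arrays, so the kept signs and the 3 calls are not separate support.

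**Figure D5:**
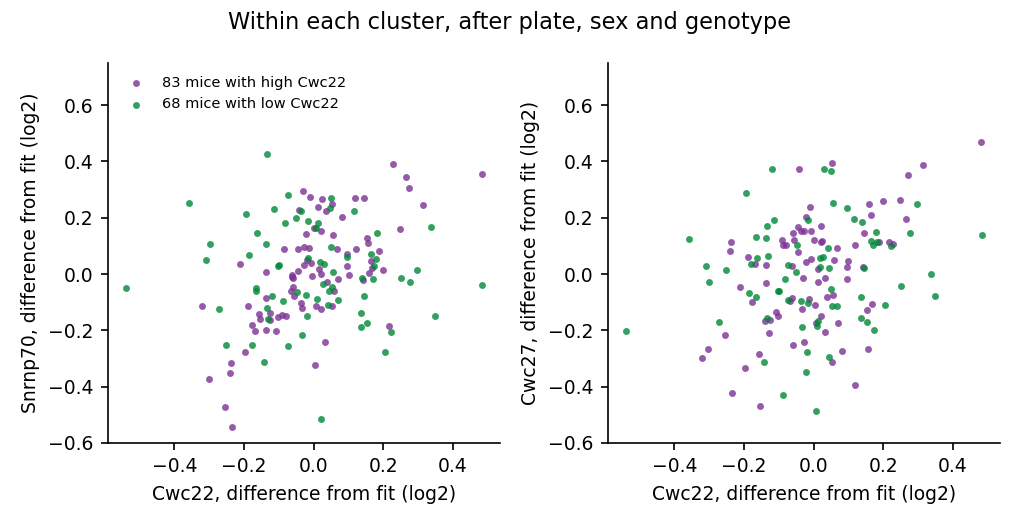
Snrnp70 (left) and Cwc27 (right) against Cwc22 within each cluster, as differences in log2 units from a fit of plate, sex and genotype made within that cluster. Purple points are the 83 mice of the upper cluster, where r is 0.67 and 0.49, and green points the 68 of the lower cluster, where it is -0.08 and 0.13.

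By list, 4 of 12 genes in the periphery of the exon junction complex rose, among them Srrm2, a splicing scaffold (slope 0.39 ± 0.09, SE), Pnn, a splicing protein that is also found at desmosomes (0.51 ± 0.12), and Luc7l3 (0.54 ± 0.14). In the complex of Prpf19 and its partners 4 of 24 rose, among them Cwf19l2 (0.56 ± 0.14) and Snw1 (0.36 ± 0.10) beside Cwc27. Among nonsense-mediated decay genes 2 of 11 rose, the endonuclease gene Smg6 (0.38 ± 0.09) and the kinase gene Smg1 (0.29 ± 0.08). In the catalytic core 1 of 12 rose, Dhx15, a helicase that takes spent spliceosomes apart (0.33 ± 0.08). Among MIF4G domain proteins and the genes grouped with them 1 of 10 rose, the nucleolar Nom1 (0.34 ± 0.11). Among early splicing factors 2 of 22 rose, Snrnp70 and Sf1. These counts stand against 3.51% of all genes outside chromosome 2, and in lists of this size 1 called member is not read as a result about the list. None of the 4 core genes passed, Eif4a3 having a slope of -0.36 ± 0.32 (limma adjusted p = 0.592). All 12 catalytic core genes outside chromosome 2 had a positive slope in the lower cluster, and 10 in the upper. Dhx15, Snw1 and Cwf19l2 had r of 0.42, 0.38 and 0.43 in the upper cluster and 0.39, 0.37 and 0.34 in the lower. Srrm2 had r of 0.45 in the upper and -0.03 in the lower.

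Cell type markers moved in the upper cluster as well. Of 91 marker genes outside chromosome 2, 2 rose with Cwc22 there and 6 fell (2.20% and 6.59%, against 3.51% and 2.85% of all genes). Those that rose were the epidermal keratin genes Krt2 (0.26 ± 0.08, SE) and Krt10 (0.17 ± 0.05). The 3 of 8 fibroblast markers that fell were Dpt (-1.20 ± 0.34), Lum (-1.10 ± 0.34) and Fbln1 (-0.56 ± 0.15). The 3 of 7 macrophage markers that fell were Lyz2 (-1.17 ± 0.35), Adgre1 (-0.98 ± 0.27) and Cd68 (-0.66 ± 0.21). With the eighth probe set none of the 8 passed. All kept their sign, but the 8 were chosen in the same mice, so the kept signs are not separate support. The part of cell composition in the pathway genes' slopes was not tested.

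Over all mice 3 of the 91 markers fell with Cwc22 and none rose, when adjusted over all genes, against 0.204% and 0.0816% of all genes outside chromosome 2. They were Ivl, a cornified envelope protein gene (slope -0.07 ± 0.02, SE), Mlana of melanocytes (-0.07 ± 0.02) and Awat2, and none of the 3 passed when genes outside chromosome 2 were adjusted alone. As a whole, the mean of the 6 melanocyte markers had r = -0.24 with Cwc22, that of 5 T lymphocyte markers -0.23, that of 6 sebaceous markers -0.19, that of 8 fibroblast markers 0.07 and that of 12 epidermal markers -0.11. The melanocyte list had all 6 members with negative r and averaged 5.24 (Slc45a2) to 8.35 (Tyrp1) log2 units. All 9 skeletal muscle and all 7 endothelial markers had positive r, with list means at 0.12 and 0.10. The other lists were mixed in sign. Positive r was found for 2 of 5 T lymphocyte, 3 of 6 sebaceous, 6 of 8 fibroblast and 4 of 12 epidermal markers. Among the marker lists, the melanocyte mean had the largest r in size. Single genes outside chromosome 2 had a median r of 0.06 in size, and no such background was made for list means.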

How the data were processed

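RNA of 153 tail skin samples was measured on Affymetrix arrays, 1 per mouse. The deposited series table holds log2 values that the authors made with RMA, per the submitters' processing notes (version not given in the sources used here). Among 35556 rows, 171 were empty. Probe sets were named from the platform annotation given with the series: 21201 have 1 symbol, 1881 several and 12303 none, and 21168 matched the RefSeq GRCm38.p6 gene table, used for names and gene order only, since the array's build is not given. Each of 18810 genes was represented by its single-symbol probe set with the highest mean. The 2 arrays labelled as outliers were left out.

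The tool for all fits was limma 3.58.1 (R 4.3.3), whose lmFit and trended eBayes steps took in genotype, sex and plate over the whole table, with Benjamini-Hochberg adjustment over all genes. A second fit added the Cwc22 value. Clusters are the mice on either side of the widest gap, and within-cluster fits use 1 cluster each. Scripts in Python 3.11.15 (scipy 1.17.1) were checked on simulated data. No depth applies to arrays, whose number limits the precision. Genes named are Cwc22, its 10 nearest measured neighbours on each side, the 12 genes most like it, the 5 most like it outside chromosome 2, and from each list up to 3 called members with the smallest p and the member with the largest r. The members and lists were chosen with earlier results of these data known. Alternatives covered the arrays left out, scaling, the filter on dim genes, plates, sexes, genotypes, the other probe set and the clusters.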

Additional observations from a re-analysis of the deposited data

How the results depend on the processing

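No paired analysis was possible because the mouse numbers name single animals and pair no samples across genotypes or sexes. The HET minus WT difference of Cwc22 was not past the threshold in any setting, and its sign changed on plate 2 (-0.053), on plate 3 (-0.22) and among males (-0.38). The male minus female difference was -0.35 among HET mice and 0.63 ± 0.28 among WT mice (SE, unadjusted p = 0.026, limma adjusted p = 0.233), and the genotype by sex difference turned to 0.54 on plate 1, none past the threshold. The distance between the clusters was 2.81 with the eighth probe set, with the same 83 and 68 mice. The 49 genes outside chromosome 2 that varied with Cwc22 became 1, 2 and 2 on plates 1, 2 and 3 alone, where fewer mice were fitted, and 0 when adjusted without chromosome 2, a setting chosen after seeing the data. They became 1090 within the upper and 0 within the lower cluster. Settings also chosen after seeing the data gave 191 and 1 with the eighth probe set in the upper and lower clusters, and 1187 in the upper cluster with the array median as a term; the cause was not tested. The slope of Fas turned to -0.026 in the lower cluster, and in the upper cluster those of Awat2 and Tbkbp1 turned to 0.22 and 0.11, or 0.19 and 0.13 with the array median. Of the 12 most alike genes chosen again within each cluster, 1 was on chromosome 2 in the upper and 1 in the lower cluster, where 8.68% of all genes lie on it. Keeping the outlier arrays, centring medians, quantile normalization and the filter on dim genes kept the direction and call of the 3 differences of Cwc22 and of the 5 named slopes, except that the filter leaves out Olfr155. With chromosome 2 left out of the adjustment, those 4 settings called 3, 4, 6 and 4 genes. Values near the bottom of the scale limit what could be seen for dim genes.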

Other observations

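The 2 WT male arrays labelled as outliers also fell outside the gap of Cwc22. One had 10.31 log2 units with the 7 identical probe sets and 8.87 with the eighth, inside the range of the upper cluster on both. The other had 7.13 and 6.67, inside that of the lower cluster. Both were run on plate 2.

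The genes with the smallest p for a slope on Cwc22 within the upper cluster were looked up after their values were seen. Besides Snrnp70 they were Ddx42, an RNA helicase gene (r = 0.70 in the upper and 0.16 in the lower cluster), Taf1a of the RNA polymerase I machinery (0.67 and 0.20), Srek1, a splicing regulator (0.65 and 0.20), and the unnamed gene 2410002F23Rik (0.64 and 0.12). Over all mice their r with Cwc22 lay between -0.02 and 0.11.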
